A study of Mus musculus with 39 samples.

Results

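Of 39 RNA-seq libraries, 8 are described here: the 4 fed libraries labelled epididymal white adipose tissue (eWAT) and the 4 fed libraries labelled quadriceps muscle, all from the arm that received the control diet in youth. The libraries were taken by their labels for tissue, juvenile diet and feeding state, and the comparison itself was chosen with earlier results of these data known. The study used male C57BL/6J mice (strain C57BL/6 in the labels), 22 weeks old at sampling, and asked how a short period of high-fat feeding in youth bears on adult metabolism. Both groups received a control diet (CD) of 10% fat during weeks 6 to 7. The other arm received a high-fat diet (HFD) with 45% fat in those weeks. Every mouse of both arms received the HFD from week 10 until sampling, so no library comes from an animal without adult high-fat feeding. Fed means that food was not withdrawn during the last 16 h. Polyadenylated RNA was read on an Ion Torrent Proton, and 6480358 to 12645271 reads were counted per library. The labels do not say whether libraries of a group came from separate animals, nor whether both tissues came from the same mice, so p-values measure the spread between these libraries.

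The epididymis is a coiled duct whose epithelium secretes lipocalins, glutathione peroxidases, defensins and protease inhibitors onto maturing sperm, segment by segment along its length. It lies against the epididymal fat pad, which stores triglyceride in adipocytes. The quadriceps is a limb muscle built mainly of fast fibres, whose RNA is dominated by sarcomere proteins, calcium pumps and enzymes that regenerate ATP.

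The libraries labelled eWAT carried epididymal transcripts at a high level and adipocyte transcripts at a low level. The 4 lists of epididymal secretory genes took 5.19%, 9.72%, 9.23% and 9.55% of the counted reads in the 4 eWAT libraries. In quadriceps the same lists took 0.0168% to 0.0208%. The summed level of 20 adipocyte markers was 4225, 1762, 2220.3 and 2536 CPM (read counts relative to library size, with sizes scaled by TMM) in eWAT. In quadriceps that sum was 1011, 1256, 2058 and 2198 CPM. In replicates 2 and 3 of the fed eWAT group of the HFD arm, in which epididymal transcripts were low, it was 50056 and 39500 CPM, on the scaling of a separate fit. The label eWAT is therefore kept below as a name, and the contrast is one of epididymis-rich tissue with muscle. In bulk tissue, fewer cells of a type and less RNA per cell cannot be told apart.

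Some libraries stood apart from the rest of their group. In eWAT, the log2 levels of replicate 1 had a Pearson correlation of 0.869 to 0.884 with the other libraries, which among themselves gave 0.982 to 0.985. These are correlations across genes, which are not independent replicates. In quadriceps the pairs ran from 0.969 to 0.982, with the 3 values of replicate 3, from 0.969 to 0.975, the lowest. Quadriceps replicate 3 carried liver transcripts, and quadriceps replicate 1 had few slow-fibre transcripts. Leaving out 1 library ended the call of some genes named below, or moved a printed fitted difference by over 1.5 times. In those cases the value without that library, or the number of such fits, is given beside the result. Within each group, the values deposited for no pair of libraries agreed within sampling noise, so all 8 were counted as separate samples. This does not show that they came from separate animals.

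The 4 marker genes separated the tissues without overlap. Gpx5, a glutathione peroxidase secreted into epididymal fluid, was at 5139, 10011, 10567 and 11530.3 CPM in eWAT and at 0, 0.535, 0.232 and 0.221 CPM in quadriceps, a log2 difference of 15.06 ± 0.58 (SE, n = 4 and 4, adjusted p 8.4e-09 by edgeR), or 15.75 without quadriceps replicate 2. Lcn5, a retinoid-binding lipocalin of the duct, was at 2119, 2111, 2538 and 2564 CPM in eWAT and had a single count in quadriceps, a ratio of 60934 (95% interval 10936 to 2406765). Ckm, the muscle creatine kinase that regenerates ATP from phosphocreatine, was at 66405, 58143, 47289.7 and 61292 CPM in quadriceps and at 0.932, 1.36, 0.995 and 0.306 CPM in eWAT, a log2 difference of -15.91 ± 0.50 (adjusted p 3.04e-09). Acta1, the actin of skeletal muscle thin filaments, was at 85488, 74343, 60705 and 88269 CPM in quadriceps and at 2.51, 3.01, 1.99 and 2.04 CPM in eWAT (log2 difference -14.96 ± 0.37, adjusted p 1.51e-09). Differences are given as eWAT minus quadriceps throughout.

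The promoters of these 4 genes are shown because the genes mark the tissues compared. They are RefSeq sequences on GRCm38.p6, from 250 bases before to 50 bases after each annotated start, read 5′ to 3′ on the strand of the gene. Capitals mark the TATA box TATAAA, the E-box CAGCTG and the CArG box (CC, 6 bases of A or T, GG), each searched on both strands.
Gpx5, chr13:21292637-21292936, minus strand: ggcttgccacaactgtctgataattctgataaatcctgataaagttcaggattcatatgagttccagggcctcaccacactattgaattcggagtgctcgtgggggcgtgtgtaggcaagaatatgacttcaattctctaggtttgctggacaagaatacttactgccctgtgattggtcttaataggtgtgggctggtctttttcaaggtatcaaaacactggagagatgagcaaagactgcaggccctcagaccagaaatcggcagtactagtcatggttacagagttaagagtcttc
Lcn5, chr2:25657702-25658001, plus strand: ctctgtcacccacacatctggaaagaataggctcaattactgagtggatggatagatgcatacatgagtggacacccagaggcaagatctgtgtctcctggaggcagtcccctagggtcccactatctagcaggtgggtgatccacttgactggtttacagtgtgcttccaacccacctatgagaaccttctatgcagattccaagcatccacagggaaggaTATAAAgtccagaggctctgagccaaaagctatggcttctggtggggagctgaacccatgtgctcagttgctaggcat
Ckm, chr7:19410844-19411143, plus strand: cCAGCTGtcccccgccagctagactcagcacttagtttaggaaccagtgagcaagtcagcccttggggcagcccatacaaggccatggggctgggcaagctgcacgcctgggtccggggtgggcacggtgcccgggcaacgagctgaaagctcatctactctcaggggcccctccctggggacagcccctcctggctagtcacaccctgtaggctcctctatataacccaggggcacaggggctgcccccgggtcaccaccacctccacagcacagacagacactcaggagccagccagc
Acta1, chr8:123894726-123895025, minus strand: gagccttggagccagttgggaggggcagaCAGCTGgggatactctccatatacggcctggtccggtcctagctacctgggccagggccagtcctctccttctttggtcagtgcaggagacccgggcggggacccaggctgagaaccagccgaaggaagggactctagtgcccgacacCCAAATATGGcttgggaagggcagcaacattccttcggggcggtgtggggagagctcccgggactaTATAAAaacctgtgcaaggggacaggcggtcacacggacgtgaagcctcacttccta
The Acta1 window held all 3 motifs, the Ckm window the E-box, the Lcn5 window TATAAA and the Gpx5 window none of them. The first base of TATAAA was at -7 from the annotated start in Acta1 and at -28 in Lcn5. Only the exact letters were searched, so variant forms of a TATA box are not marked. Of 32851 RefSeq promoters of the same length, 13.6% held TATAAA, 16.3% CAGCTG and 1.63% a CArG box. A match describes the letters only.

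**Figure D1:**
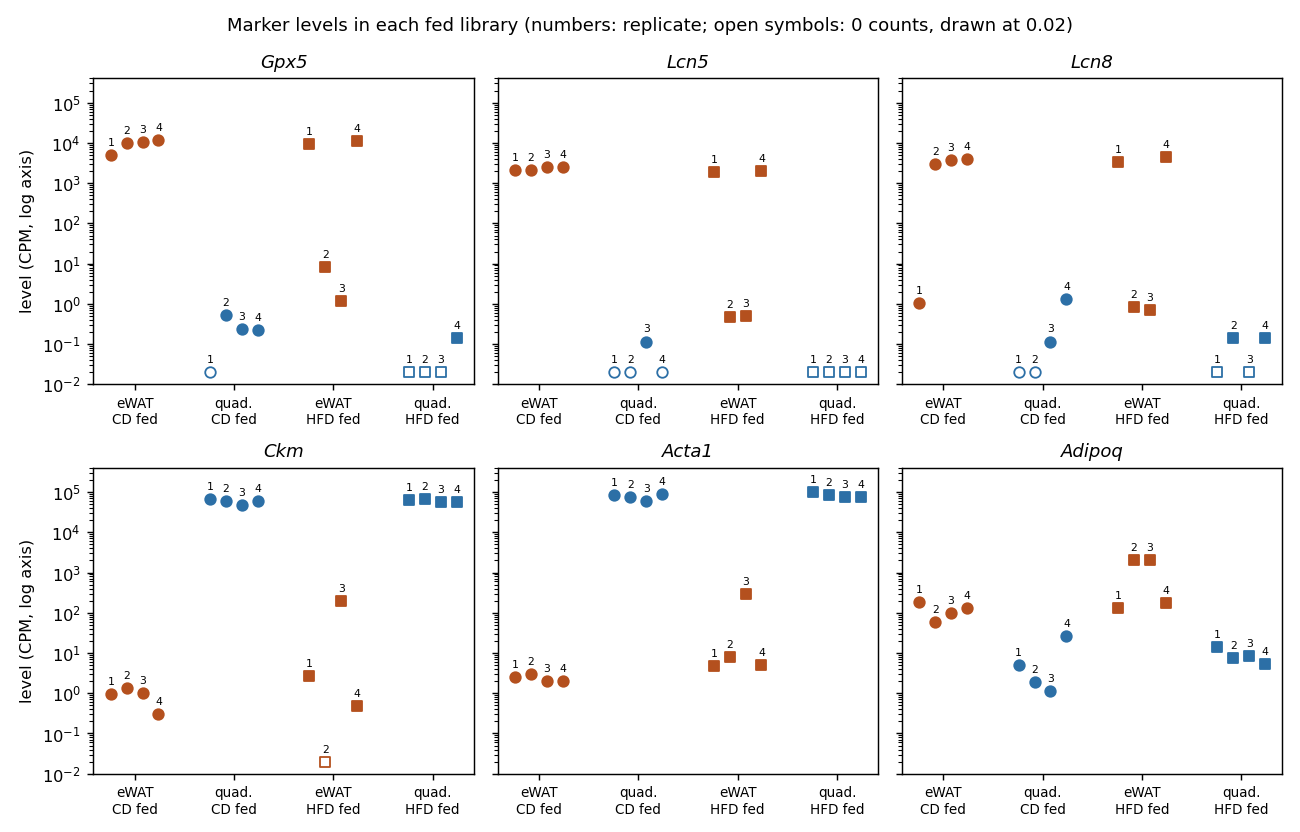
Level of Gpx5, Lcn5, Lcn8, Ckm, Acta1 and Adipoq in each fed library of both juvenile diet arms, in CPM on a log axis, with 1 numbered point per library (circles CD, squares HFD) and open points for a count of 0. In the CD arm the tissues do not overlap for Gpx5, Lcn5, Ckm, Acta1 and Adipoq, while Lcn8 in eWAT replicate 1 lies inside the quadriceps range. In the HFD arm eWAT replicates 2 and 3 are low in the 3 epididymal genes and high in Adipoq.

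The tissues differed in most measured genes. Of 14365 genes tested, 5698 (39.7%) were higher and 4522 (31.5%) were lower in eWAT at an adjusted p under 0.05, 71.1% in all. Against a null of a 4-fold difference, 2083 (14.5%) were higher and 1265 (8.81%) were lower. The 4 libraries of each tissue did not overlap for 67.3% of tested genes. These are the backgrounds against which the counts of each gene group below are read. A gene nearly without counts in 1 tissue passed the filter on low counts only through its level in the other. Its direction was thus fixed beforehand, and counts of such members add no support. This holds for the lipocalin, defensin, protease inhibitor, mesothelial and spermatid lists below, whose summed level in quadriceps was at most 1.6 CPM. It also holds for those members of other lists that had few or no counts in 1 tissue. Examples are Rnase9 and Crisp1 of the sperm-coat list in quadriceps, and Myh4 and Ampd1 of the muscle lists in eWAT. The median log2 difference of all tested genes was 0.25.

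The split between higher and lower depended on scaling. The 20 most abundant genes took 46.1% to 51.6% of counted reads in quadriceps and 18% to 26.3% in eWAT. On plain library sizes the median of all genes moved to 1.57, with 10087 genes higher and 1795 lower, so that 84.9% of calls were higher in place of 55.8%. Differences below about the size of that shift are therefore tied to the scaling, and groups for which it changed the direction are named as such.

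**Figure D2:**
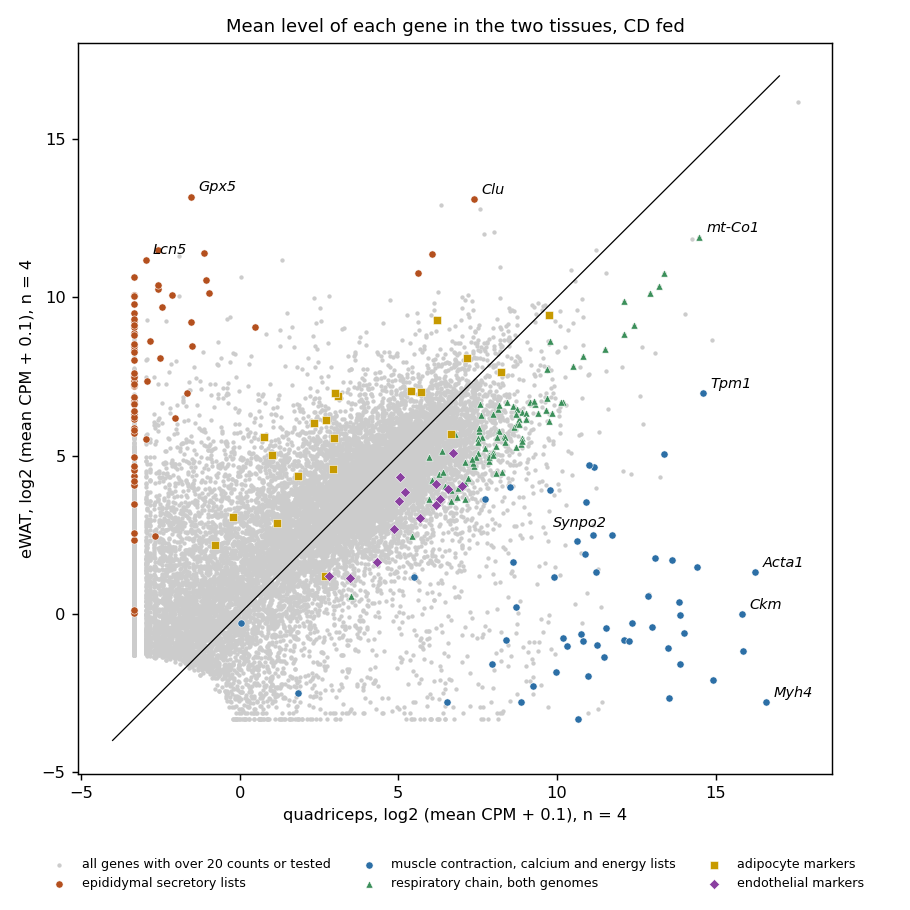
Mean level of each gene that was tested or had over 20 counts, in quadriceps (horizontal) against eWAT (vertical), as log2 of CPM plus a small constant, over the 4 fed CD libraries of each tissue. The labelled markers lie in opposite corners, with Gpx5 and Lcn5 high in eWAT alone and Ckm and Acta1 high in quadriceps alone.

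Among protein-coding genes, expressed per kilobase of exon, the most abundant in eWAT were largely epididymal secretory products. The non-coding Gm42418, left out of this order, took 5.33% to 14.2% of counted reads in eWAT and 8.57% to 14.5% in quadriceps. Among the protein-coding genes Gpx5 had the highest mean at 5563 CPM per kb. It was followed by Lcn8 at 4157, Defb25 at 3826, Crip1 at 3089, Lcn5 at 2645 and Clu at 2560.4 CPM per kb. Crip1 encodes a small LIM-domain protein and Clu encodes clusterin, a secreted chaperone. In quadriceps the highest were Acta1 at 50261, Ckm at 20008, the fast troponin T Tnnt3 at 19271, the calcium pump Atp2a1 at 17125 and the fast myosin heavy chain Myh4 at 16394 CPM per kb. The leading protein-coding gene of muscle thus stood higher per kilobase than that of eWAT.

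Among the other leading genes of eWAT were 2 of glutamine handling. Glul, for glutamine synthetase, was at 1820.4, 1924, 1789 and 2433 CPM in eWAT and at 313, 211, 274 and 375 CPM in quadriceps (log2 difference 2.76 ± 0.22, adjusted p 1.08e-06). Slc38a5, a glutamine transporter, was at 2069, 2569, 2350.5 and 3074 CPM against 0.168, 0.267, 0 and 0.221 CPM (log2 difference 13.91 ± 0.42, adjusted p 2.85e-09). Groups were apart for both. Cuzd1, a membrane protein with CUB and zona pellucida domains, was at 2554, 2342, 2607 and 1873 CPM against 2.35, 1.47, 2.32 and 3.54 CPM. Itm2b, a widely expressed membrane protein, was at 3167, 4102, 4489.6 and 4649 CPM against 205, 200.4, 181 and 243 CPM (log2 difference 4.31 ± 0.21).

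The epididymal lipocalins, small carriers of retinoids and other lipids, were higher in eWAT for 6 of 6 tested members of a list of 7, of which 5 passed the 4-fold test. Ptgds, the lipocalin-type prostaglandin D synthase, was at 807, 898, 929.6 and 931 CPM in eWAT. It had no count in quadriceps, and was at least 7831-fold higher against a floor of 3 counts over the group (adjusted p 1.57e-08). Lcn12, a further retinoid-binding member, was at 95.7, 125, 112 and 124 CPM in eWAT and had no count in quadriceps. Levels of both were even across the 4 eWAT libraries.

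Other lipocalins were nearly missing from eWAT replicate 1. Lcn8 was at 1.05, 3031, 3847 and 3946 CPM in eWAT against 0, 0, 0.116 and 1.33 CPM in quadriceps, a log2 difference of 13.21 ± 2.72 (adjusted p 0.00386), which without replicate 1 was 13.66 (adjusted p 5.15e-10). Without quadriceps replicate 4 it was 15.55. The Lcn8 call was lost in limma voom with all libraries. Lcn9 was at 0.0583, 1839.9, 2044 and 2144 CPM in eWAT and at 0, 0.936, 0.349 and 0.221 CPM in quadriceps. It did not pass the filter on low counts with all libraries, and without replicate 1 it had a log2 difference of 12.22 (adjusted p 4.15e-15). Lcn10 was at 3.03, 634, 708 and 547 CPM and Lcn6 at 35.4, 223, 185 and 208 CPM in eWAT, both with no count in quadriceps. The call of Lcn10 (adjusted p 0.0229) was lost without eWAT replicate 2, 3 or 4 (adjusted p 0.0662 to 0.0702). It was also lost in limma voom (adjusted p 0.106) and with no filter on low counts (adjusted p 0.0621). Lcn5 and Ptgds in contrast differed little between replicate 1 and the rest. The median log2 difference of the tested members was 14.52, or 12.45 with members of no count in quadriceps set at their bound.

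Genes whose products coat or surround sperm were higher for 19 of 19 tested members of a list of 21, each past the 4-fold test. Adam7, a membrane protein transferred to sperm, was at 1615, 3109.9, 3429 and 3295 CPM in eWAT and had counts in 1 quadriceps library, at 0.267 CPM. Rnase9, an epididymal member of the ribonuclease A family, was at 1079, 926, 1141 and 1120.3 CPM in eWAT and had no count in quadriceps, at least 9355-fold higher. Clu was at 9496, 8284, 8200.2 and 9220.3 CPM in eWAT and at 162, 177, 190.5 and 142 CPM in quadriceps, a log2 difference of 5.71 ± 0.20 (adjusted p 5.49e-09). Clu was the member with the highest level in muscle. Crisp1, for a cysteine-rich secretory protein that binds sperm, was at 1084, 1279, 1443 and 519 CPM in eWAT with no count in quadriceps, and here replicate 4 was the lowest. Npc2, a cholesterol-binding protein of epididymal fluid, was at 1855, 1854, 1861 and 1377 CPM in eWAT against 52.8, 48.7, 46.4 and 48.9 CPM (log2 difference 5.14 ± 0.18).

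Several members of this list were low in eWAT replicate 1. Mfge8, a milk fat globule protein also found on sperm, was at 204, 3437, 3652 and 3344 CPM in eWAT and at 58.2, 65.1, 65.5 and 80.2 CPM in quadriceps, a log2 difference of 5.31 ± 0.86 (adjusted p 0.000853) that became 5.71 without replicate 1. Adam28 was at 0.117, 638, 944 and 781 CPM in eWAT, and replicate 1 lay below the quadriceps range of 0.134 to 0.442 CPM. Without that library its log2 difference was 11.70 (adjusted p 1.01e-15). Rnase10 was at 0.932, 1472, 1706 and 1751 CPM in eWAT, with a log2 difference of 14.20 without replicate 1 (adjusted p 1.01e-15), and its call was lost in limma voom. Without replicate 1, 20 of 20 tested members were higher. Across its members the median log2 difference was 13.08, or 11.39 with bounds.

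The beta-defensins, cationic antimicrobial peptides, were higher for 20 of 20 members, 18 of them past the 4-fold test. Spag11b, a defensin-like sperm-binding peptide, was at 509.7, 1909, 1914 and 2095 CPM in eWAT with no count in quadriceps, at least 13526-fold higher (adjusted p 7.91e-05). Defb42 was at 576, 909, 1278 and 1424 CPM with no count in quadriceps, at least 8742-fold higher (adjusted p 1.49e-06). Defb20 was at 150.0, 1578, 1589 and 2002 CPM against 0.267 CPM in a single quadriceps library. Defb25 was at 0.932, 1006, 1129.9 and 2347 CPM in eWAT and at 0.335, 1.2, 0.116 and 0 CPM in quadriceps, and replicate 1 of eWAT lay inside the quadriceps range. Its log2 difference of 11.25 ± 2.39 was 11.67 without eWAT replicate 1 (adjusted p 1.97e-06), 10.64 without eWAT replicate 4 and 12.69 without quadriceps replicate 2, and its call was lost in limma voom. Defb12, in turn, was even at 275, 240.0, 254 and 277 CPM, and Defb19 was highest in replicate 1 at 13.1 CPM against 1.92 to 2.54 CPM in the other 3. As a median, the log2 difference was 13.00, or 10.29 with bounds.

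Protease inhibitors of the duct, from the Wfdc, Spink, Spint, cystatin and serpin families, were higher for 24 of 24 tested members of a list of 26, all past the 4-fold test. Spink8 was at 886, 829.8, 900.0 and 706 CPM in eWAT and had counts in 2 quadriceps libraries, at 0.116 and 0.221 CPM. Wfdc10 was at 419, 825, 878 and 766 CPM with no count in quadriceps, at least 6269.6-fold higher. Serpina1f was at 565, 619, 523 and 531 CPM with no count in quadriceps, at least 5002-fold higher. Serpina1f and Spink8 were even across the 4 eWAT libraries, and Wfdc10 was lowest in replicate 1. The cystatins Cst8, Cst11 and Cst12 were low in replicate 1, and the call of Cst8 was lost without replicate 2, 3 or 4 (adjusted p 0.0513 to 0.0544). Cst11 was at 12.7, 829.8, 883 and 844 CPM, with no count in quadriceps (adjusted p 8.01e-15 without replicate 1). Serpina16, at 451, 373, 314 and 109 CPM, was instead lowest in replicate 4. The list's median log2 difference was 12.92, or 10.08 with bounds.

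Of the 74 genes of these 4 epididymal lists, 68 had a mean of at least 10 CPM in eWAT replicates 2 to 4. In replicate 1, 7 of the 68 stood below 1% of that mean, 10 from 1% to 10%, 7 from 10% to 50% and 44 from 50% to 200%, with none above 200%. The deficit of replicate 1 thus fell on part of the secretory genes. The same library had the highest sums of spermatid and hepatocyte transcripts among the 4, given below.

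**Figure D3:**
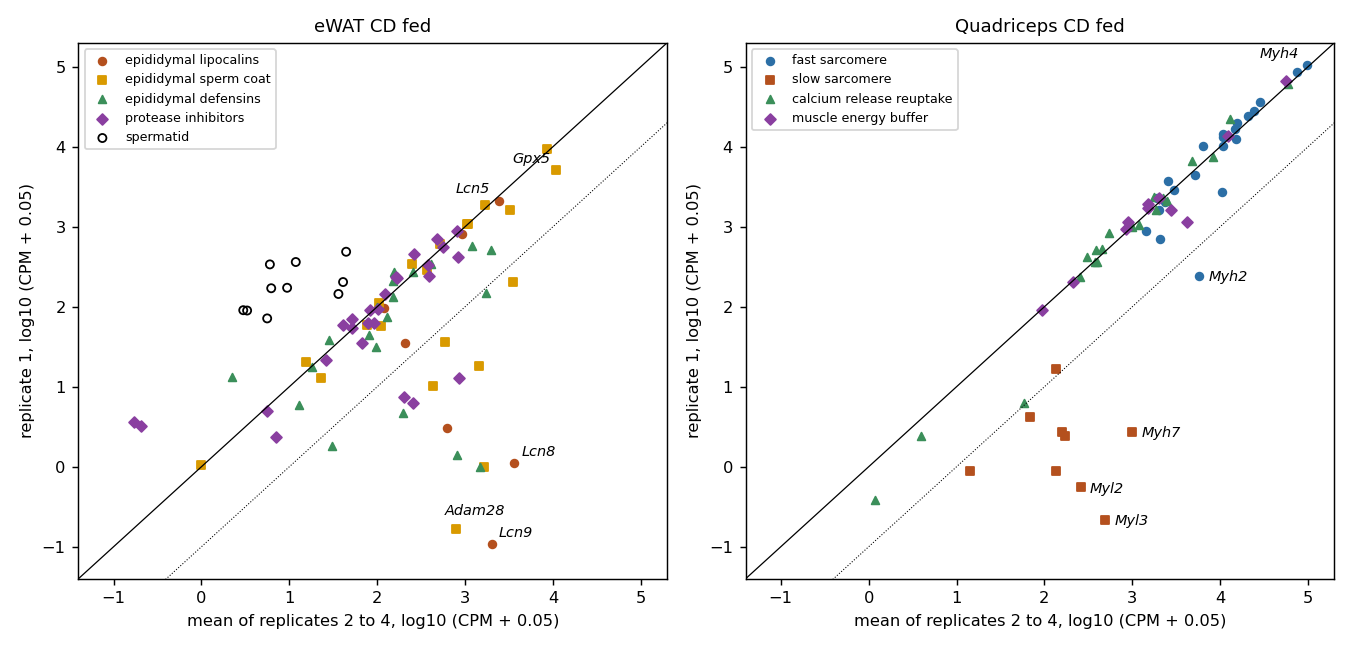
Level in eWAT replicate 1 against the mean of replicates 2 to 4, as log10 of CPM plus a small constant, with 1 point per epididymal gene, and the matching plot of muscle genes for quadriceps replicate 1. Most points lie near the line of equality, while 17 of the 68 epididymal genes lie below the dotted line at 10% of the other libraries' mean and slow-fibre genes lie far below it in quadriceps.

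Genes of luminal ion and water transport, which acidify and concentrate the fluid around sperm, were higher for 12 and lower for 3 of 16 tested members of a list of 20. The proton pump subunits of clear cells were among the higher genes. Atp6v0d2 was at 8.62, 23.9, 21.7 and 24.6 CPM in eWAT with no count in quadriceps. Foxi1, a transcription factor that drives genes of proton-secreting cells, was at 35.1, 42.6, 35.3 and 38.5 CPM with no count in quadriceps and at least 336-fold higher (adjusted p 1.18e-07). Aqp9, a water and glycerol channel, was at 44.4, 54.6, 49 and 39.5 CPM against 0, 0, 1.39 and 0.221 CPM (log2 difference 6.60 ± 0.68, or 9.42 without quadriceps replicate 3). Scnn1a, a subunit of the epithelial sodium channel, was at 31.8, 86, 56.2 and 62.9 CPM against 1.17, 0.267, 0.581 and 0.221 CPM (log2 difference 6.68 ± 0.47). Car14, a membrane carbonic anhydrase, went the other way at 2.97, 4.02, 2.91 and 1.84 CPM in eWAT and 43.9, 44.3, 46 and 48 CPM in quadriceps (log2 difference -3.93 ± 0.22). The sodium-proton exchanger Slc9a2 and the cotransporter Slc12a2 were also lower, by log2 differences of -1.42 ± 0.19 and -2.39 ± 0.19. On plain library sizes Slc9a2 was at -0.098 and did not pass (adjusted p 0.616 by edgeR). Across its members the median log2 difference was 6.64, or 6.35 with bounds.

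Regulators of the duct and of androgen response were higher for 9 and lower for 2 of 13 tested members of a list of 15. Pax8 and Pax2, paired-box factors of the Wolffian duct, were at 106, 157, 166 and 157 and at 61.1, 72.5, 68.6 and 64.4 CPM in eWAT. Neither had a count in quadriceps, which puts them at least 1276-fold and 592-fold higher. Ros1, a receptor kinase needed for the initial segment of the epididymis, was at 56.4, 97.2, 132 and 127 CPM against 0.503, 0.134, 0.116 and 0 CPM (log2 difference 9.01 ± 0.50, or 9.89 without quadriceps replicate 1, adjusted p 1.78e-07). Srd5a2, which converts testosterone to dihydrotestosterone, was at 46.1, 66.9, 61 and 60.9 CPM in eWAT and had counts in 1 quadriceps library.

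Etv4 and Etv5, ETS factors that act downstream of fibroblast growth factor signals, depended on replicate 1. Etv5 was at 6.29, 192, 179 and 189.5 CPM in eWAT and at 14.6, 20.1, 17.9 and 19.5 CPM in quadriceps, a log2 difference of 2.98 ± 0.91 (adjusted p 0.0221), and 3.39 without replicate 1 (adjusted p 6.25e-13). The call was lost without eWAT replicate 2, 3 or 4 or quadriceps replicate 1 (adjusted p 0.051 to 0.0543) and in limma voom. Etv4 was at 0.466, 49.4, 52.5 and 44.5 CPM in eWAT and at 3.35, 4.41, 5.69 and 6.63 CPM in quadriceps. It did not pass with all libraries (adjusted p 0.0511) and had a log2 difference of 3.31 without replicate 1. For both genes replicate 1 lay below every quadriceps library and the other 3 above. Without replicate 1 the list had 10 members higher and 2 lower.

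Epithelial junction and keratin genes were higher for 21 of 21 members, 20 of them past the 4-fold test, with a median log2 difference of 8.61 (8.53 with bounds). Without quadriceps replicate 3 the median was 11.10. Krt8, a keratin of simple epithelia, was at 239, 327, 331 and 283 CPM in eWAT and at 0.168, 0, 3.02 and 0 CPM in quadriceps (log2 difference 8.25 ± 0.86, or 12.08 without quadriceps replicate 3). Cldn3, a tight junction protein, was at 239.8, 306, 297 and 242 CPM against 0.168, 0.134, 1.98 and 0 CPM (log2 difference 8.61 ± 0.65, or 11.10 without quadriceps replicate 3). Epcam, an epithelial adhesion protein, was at 146, 186, 227 and 236 CPM with counts in 1 quadriceps library. For these 3 genes quadriceps replicate 3 was the highest of its group.

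Basal cell genes were higher for 6 of 6 members, 4 of them past the 4-fold test. Krt5, a basal keratin, was at 38.2, 50.8, 50.4 and 45.9 CPM in eWAT with counts in 1 quadriceps library. Krt14, its partner keratin, was at 31.5, 33.7, 42.5 and 36.2 CPM with no count in quadriceps, at least 315-fold higher. Trp63, the basal cell transcription factor p63, was at 9.96, 18.7, 22 and 19.9 CPM against 6.37, 9.5, 8.72 and 9.06 CPM in quadriceps. Its log2 difference of 1.07 ± 0.26 was below the shift between scalings. Trp63 was thus measured in both tissues, whereas the keratins were nearly limited to eWAT.

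Adipocyte markers were higher for 14 and lower for 2 of 20 members, and 6 passed the 4-fold test. On plain library sizes 16 were higher and 0 lower, and limma voom called 1 lower. Adipoq, for the hormone adiponectin, was at 187, 58.4, 96.7 and 132 CPM in eWAT and at 5.03, 1.87, 1.16 and 26.1 CPM in quadriceps (log2 difference 3.90 ± 1.00, or 5.50 without quadriceps replicate 4, adjusted p 0.0106). Lep, for leptin, was at 72.9, 30.7, 39.9 and 49.7 CPM against 1.84, 0.802, 0.232 and 3.54 CPM (log2 difference 5.07 ± 0.63, or 5.72 without quadriceps replicate 4, adjusted p 0.000119). Cfd, the adipokine adipsin, was at 967, 421, 654 and 472 CPM against 92.7, 25.8, 19.5 and 159 CPM (log2 difference 3.09 ± 0.73, or 3.76 without quadriceps replicate 4). Replicate 1 had the highest level of all 3 in eWAT, and quadriceps replicate 4 had the highest in muscle. The groups did not overlap for these 3 genes.

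Other genes named for fat were shared with muscle. Fabp4, a fatty acid carrier of adipocytes and capillaries, was at 434, 176, 226 and 258 CPM against 115, 139, 127 and 189 CPM, a log2 difference of 0.94 ± 0.28. Car3, a carbonic anhydrase of adipocytes and slow muscle, was at 1014, 447, 579.5 and 749 CPM in eWAT and at 559, 477, 1223 and 1174 CPM in quadriceps. Its log2 difference of -0.30 ± 0.36 did not pass (adjusted p 0.478). Lpl, the lipoprotein lipase of both tissues, was at 291, 123, 158 and 227 CPM against 100.29, 376, 403 and 317 CPM and did not pass either (adjusted p 0.261, or 0.0205 as lower without quadriceps replicate 1). Groups overlapped for Car3 and Lpl, and both turned to the opposite sign on plain library sizes. As a median, the log2 difference was 2.59.

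Genes of fatty acid synthesis were higher for 15 and lower for 6 of 23 members, with 10 and 3 of them past the 4-fold test. Acly, which makes cytosolic acetyl-CoA, was at 890.1, 969.7, 999 and 1048 CPM in eWAT and at 23.1, 28.5, 24.6 and 30.9 CPM in quadriceps (log2 difference 5.19 ± 0.17, adjusted p 3.65e-09). Fasn, the fatty acid synthase, was at 631, 711, 536 and 734 CPM against 49.1, 59.3, 40.2 and 136 CPM (log2 difference 3.21 ± 0.38). Scd1, a stearoyl-CoA desaturase, was at 1314, 575, 495 and 758 CPM against 46.3, 34.4, 48.1 and 147 CPM (log2 difference 3.51 ± 0.57, or 4.17 without quadriceps replicate 4). Scd2, the second desaturase, was at 485, 805, 811 and 809.9 CPM against 48.8, 64.2, 37.5 and 40.9 CPM (log2 difference 3.93 ± 0.25). Scd1 was highest and Scd2 lowest in eWAT replicate 1, the library with the highest adipocyte sum.

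Lower members included enzymes with a known muscle role. Acacb, the mitochondrial acetyl-CoA carboxylase whose product inhibits fatty acid import, was at 25.1, 12.6, 12.3 and 10.5 CPM in eWAT and at 604, 865, 649.8 and 777 CPM in quadriceps (log2 difference -5.58 ± 0.32). Gpd1, the cytosolic glycerol-3-phosphate dehydrogenase, was at 87.6, 81.9, 85.3 and 84.7 CPM against 1243, 1126, 861 and 1045 CPM (log2 difference -3.65 ± 0.17). Me1, the cytosolic malic enzyme, was at 64.1, 17.6, 13.2 and 21.3 CPM against 341, 244, 251 and 286 CPM (log2 difference -3.27 ± 0.52, or -4.003 without eWAT replicate 1). The groups were apart for all 3. The list's median log2 difference was 1.30.

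Endothelial markers were lower in eWAT for 14 of 14 members, 6 of them past the 4-fold test. Cdh5, the endothelial cadherin, was at 16, 21.9, 14.4 and 13.2 CPM in eWAT and at 90.1, 143, 136 and 146 CPM in quadriceps (log2 difference -2.97 ± 0.22). Kdr, a receptor for vascular endothelial growth factor, was at 11.7, 15.7, 9.74 and 11.7 CPM against 51.5, 97.1, 88.8 and 83.1 CPM (log2 difference -2.71 ± 0.23). Across its members the median log2 difference was -2.29. On plain library sizes 9 members were lower and 1 higher.

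Fibroblast and matrix genes were lower for 10 and higher for 3 of 13 members, with a median log2 difference of -1.29. That direction flipped with scaling: on plain library sizes 2 were lower and 4 higher, with a median log2 difference of 0.04. Col1a1, a chain of type I collagen, was at 88.9, 77.6, 84.6 and 81.4 CPM in eWAT and at 160.5, 252, 244 and 328 CPM in quadriceps (log2 difference -1.57 ± 0.20). Dpp4, a membrane peptidase of progenitor fibroblasts and of several epithelia, was at 43.5, 38.3, 39 and 40.5 CPM against 1.51, 1.2, 2.67 and 1.99 CPM (log2 difference 4.43 ± 0.24), and was the single member past the 4-fold test. Pdgfra, a platelet-derived growth factor receptor, was at 19.5, 65.3, 90.2 and 96.3 CPM against 15.1, 14.2, 15.6 and 16.6 CPM, with replicate 1 the lowest in eWAT.

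Macrophage genes were higher for 11 and lower for 1 of 17 members, with a median log2 difference of 0.96, below the shift between scalings, and 16 were higher on plain library sizes. Gpnmb, a glycoprotein of lysosome-rich macrophages and other cells, was at 27.1, 53.1, 45.1 and 50.1 CPM in eWAT and at 2.52, 0.802, 1.86 and 2.43 CPM in quadriceps (log2 difference 4.56 ± 0.35). Lyz2, a macrophage lysozyme, was at 66, 28.9, 37.2 and 37.6 CPM against 51.8, 23.3, 37.8 and 41.8 CPM and did not pass (adjusted p 0.688). Of 12 lymphocyte markers only Mzb1 passed the filter on low counts, and its log2 difference of -0.91 ± 0.38 did not pass the test. Mzb1 shares 57.2% of its exonic length with another annotated gene on the same strand, so its counts are uncertain. T cell and B cell markers such as Cd3e and Cd79a reached at most 1.24 and 1.22 CPM.

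Smooth muscle genes, expressed in the wall of the duct and of vessels, were higher for 6 and lower for 2 of 9 members. Actg2, an actin of visceral smooth muscle, was at 47.5, 827, 961 and 837 CPM in eWAT and at 0.671, 0.802, 0.697 and 0.663 CPM in quadriceps (log2 difference 9.85 ± 1.17), and was 10.25 without replicate 1. Synpo2, an actin-bundling protein that skeletal muscle also uses, was lower at 6.82, 5.32, 5.33 and 5.71 CPM against 537, 1073, 689.5 and 862 CPM (log2 difference -7.09 ± 0.28). Of the nerve markers, the calcium-binding protein gene S100b was higher by 1.29 ± 0.42 on the log2 scale, a call lost without quadriceps replicate 1 or 3 (adjusted p 0.0521 and 0.051). Mbp, for myelin basic protein, was lower (log2 difference -1.21 ± 0.29), a direction that flipped on plain library sizes. Mesothelial genes were higher for 3 of 3 tested members of a list of 7. The haemoglobin genes Hba-a1, Hba-a2 and Hbb-bs were lower, a direction that flipped on plain library sizes. Of these 3 calls, that of Hba-a1 was lost in 7 of the 8 fits without 1 library, the exception being quadriceps replicate 3, and that of Hbb-bs in 6 of 8, the exceptions being quadriceps replicate 3 and eWAT replicate 1. In the fit of all 39 libraries none of the 3 passed.

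Transcripts of spermatids, the haploid germ cells that package DNA with protamines, were measured in every eWAT library. The summed level of 10 such genes was 2129, 218, 159 and 123 CPM in eWAT and at most 0.663 CPM in quadriceps. Prm2, a protamine, was at 487, 57.3, 43 and 32.5 CPM in eWAT with counts in 1 quadriceps library. Replicate 1 was the highest, and 6 of 10 members passed with all libraries (2 by DESeq2) against 10 of 10 without it. DESeq2 returned no adjusted p for Prm2, Tnp2, Gapdhs and Pgk2, which were counted as not passed. The part of spermatid transcripts in the epididymal differences was not tested.

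Liver transcripts appeared in libraries of both tissues. The summed level of 10 hepatocyte genes was 1627, 152, 361 and 151 CPM in eWAT and 5.2, 7.62, 855 and 2.87 CPM in quadriceps. Alb, for serum albumin, was at 843, 71.6, 185 and 70.5 CPM in eWAT and at 2.68, 2.94, 454 and 1.33 CPM in quadriceps. With all libraries 0 of 10 passed in edgeR, 0 of 10 had an unadjusted p under 0.05, and DESeq2 passed 0 and limma voom 1. Without quadriceps replicate 3 all 10 were higher in eWAT by edgeR. What liver transcripts contribute to other differences was not tested.

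Genes of the fast sarcomere list were lower in eWAT for 22 of 22 members, each past the 4-fold test. The median log2 difference was -13.11 (-13.11 with bounds). The list also holds genes not limited to fast fibres, such as Acta1, Ttn and Mybpc1. The summed level of its members was 397996, 391774, 302779 and 399755 CPM in quadriceps and 214, 211, 187 and 232 CPM in eWAT. Myh4, the fastest myosin heavy chain, was at 105328, 110360.4, 74279 and 104527 CPM in quadriceps and had 3 counts in all eWAT libraries together. Tnnt3 was at 35891, 32199, 23011 and 30921 CPM in quadriceps and at 0.117, 0.177, 0.142 and 0.102 CPM in eWAT (log2 difference -17.64 ± 0.39). Ttn, for the giant spring protein titin, was at 12499, 15274, 17419.7 and 13002 CPM in quadriceps and at 2.74, 0.295, 1.07 and 0.714 CPM in eWAT (log2 difference -13.51 ± 0.72, or -14.36 without eWAT replicate 1). Tpm1, a tropomyosin also made by smooth muscle and other cells, kept the highest level in eWAT of the list at 124, 117, 111 and 148 CPM, against 27889, 27119, 19348 and 25559 CPM in quadriceps (log2 difference -7.64 ± 0.26).

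Among myosins of intermediate and slow fibres, quadriceps replicate 1 was the lowest of the 4 CD libraries. Myh1, of type 2X fibres, was at 2677, 12347, 8538 and 10895 CPM in quadriceps, and Myh2, of type 2A fibres, was at 242, 7246, 5390.2 and 4647 CPM. Myh7, the slow myosin heavy chain, was at 2.68, 845, 1392 and 758 CPM in quadriceps and at 1.69, 0.118, 0.284 and 0.204 CPM in eWAT (log2 difference -10.22 ± 1.99, adjusted p 0.00292). Without replicate 1 its log2 difference was -10.66 (adjusted p 4.11e-05), and without eWAT replicate 1 it was -11.79. In the fed quadriceps of the juvenile HFD arm Myh7 was at 1553, 4.39, 1.9 and 3.99 CPM, and the slow list summed to 3549, 66.2, 92.4 and 71.4 CPM. Low slow-fibre levels were thus measured in 4 of the 8 fed quadriceps libraries. The slow myosin light chains Myl2 and Myl3 were at 0.503, 225, 373 and 179.9 and at 0.168, 402, 671 and 402 CPM in quadriceps. They did not pass the filter on low counts with all libraries, and were called lower without replicate 1 (adjusted p 2.77e-05 and 1.84e-07). With all libraries 5 of 6 tested members of the slow list of 9 were lower by edgeR and 0 by limma voom, and without quadriceps replicate 1 all 9 were. The slow tropomyosin Tpm3, at 78.8, 76.1, 86.3 and 84.1 CPM in eWAT, did not pass with all libraries (adjusted p 0.579) and was called lower without quadriceps replicate 1 (adjusted p 0.0186).

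Over 62 genes of the sarcomere, calcium and energy lists, 60 had a mean of at least 10 CPM in quadriceps replicates 2 to 4. In replicate 1, 4 stood below 1% of that mean, 5 from 1% to 10%, 5 from 10% to 50% and 46 from 50% to 200%.

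Calcium release and reuptake genes were lower for 18 of 18 tested members of a list of 20, all past the 4-fold test. Atp2a1, the calcium pump SERCA1, was at 60999.5, 60212, 46059 and 70903 CPM in quadriceps and at 0.524, 0.295, 0.569 and 0 CPM in eWAT (log2 difference -17.25 ± 0.62). Pvalb, the calcium buffer parvalbumin of fast fibres, was at 21892, 12173, 10882 and 15416 CPM against 0.0583, 0.354, 0.213 and 0.306 CPM (log2 difference -15.95 ± 0.54). Ryr1, the calcium release channel, was at 7461, 9699, 6213 and 9145 CPM against 1.51, 0.532, 0.426 and 0.102 CPM (log2 difference -13.50 ± 0.64, or -14.29 without eWAT replicate 1). Casq2, the calsequestrin of slow and cardiac muscle, was at 6.21, 54.8, 73.7 and 44.9 CPM in quadriceps, with replicate 1 the lowest. Atp2a1 shares 21.9% of its exonic length with Rabep2 on the opposite strand, and the strand setting of the counting is not given in the sources used here.

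Genes of the energy buffer were lower for 11 of 11 members, all past the 4-fold test. Pygm, which releases glucose-1-phosphate from glycogen, was at 13471, 11954, 9454 and 15042 CPM in quadriceps and at 3.79, 5.32, 2.27 and 1.33 CPM in eWAT (log2 difference -11.91 ± 0.53). Ampd1, the muscle AMP deaminase, was at 1924, 1359.7, 1435 and 1762 CPM in quadriceps with no count in eWAT, at least 30511-fold lower there. Mb, for the oxygen store myoglobin, was at 1143, 4376, 4474 and 3594 CPM against 4.14, 6.02, 4.55 and 7.45 CPM (log2 difference -9.27 ± 0.55), with quadriceps replicate 1 again the lowest of its group. Ckmt2, the mitochondrial creatine kinase, was at 1610.0, 3049, 2967 and 2160.1 CPM in quadriceps and had counts in eWAT replicate 1 alone, at 1.63 CPM.

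Genes of the neuromuscular junction were lower for 9 of 10 tested members of a list of 11. Ache, for acetylcholinesterase, was at 71.4, 114, 62.4 and 95.5 CPM in quadriceps and at 0.117, 0.591, 0.284 and 0.306 CPM in eWAT (log2 difference -7.98 ± 0.38). Rapsn, which clusters acetylcholine receptors, was at 68.9, 66.6, 46.4 and 56.1 CPM against 1.17, 0.295, 0.426 and 0 CPM (log2 difference -6.82 ± 0.56, or -7.71 without eWAT replicate 1). Lrp4, a receptor for agrin that epithelia express as well, was higher in eWAT at 33.7, 54.3, 66 and 60.0 CPM against 11.9, 21, 18.5 and 18.1 CPM (log2 difference 1.62 ± 0.24, adjusted p 0.000134). Lrp4 was the one member of the list with this direction.

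Myogenic regulators were lower for 14 of 14 tested members of a list of 15. Myod1, a master regulator of muscle fate, was at 42.8, 47.3, 42.2 and 35.8 CPM in quadriceps with no count in eWAT, at least 825-fold lower there. Smyd1, a methyltransferase of developing sarcomeres, was at 745, 684, 689 and 749.8 CPM against 1.4, 0.591, 0.0711 and 1.12 CPM (log2 difference -9.80 ± 0.55). Mef2c, a transcription factor of muscle genes, was at 335, 408, 452 and 418 CPM against 2.21, 1.95, 1.63 and 2.96 CPM (log2 difference -7.54 ± 0.23). Its relative Mef2a was at 93.1, 135, 111 and 104 CPM against 74.3, 61.9, 64.9 and 68 CPM, a log2 difference of -0.72 ± 0.14 that turned to 0.61 on plain library sizes. Pax7, of muscle satellite cells, was at 3.02, 4.81, 2.91 and 4.42 CPM in quadriceps with no count in eWAT. The Mef2 family was thus measured in both tissues while Myod1 and Pax7 were counted in muscle alone.

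Glycolytic genes were lower for 11 and higher for 5 of 18 members, with a median log2 difference of -3.58. Aldoa, the aldolase of muscle, was at 36179, 33576, 25801 and 26096 CPM in quadriceps and at 431, 417, 375 and 373 CPM in eWAT (log2 difference -6.25 ± 0.24). Eno3, the muscle enolase, was at 11558, 9134, 7983 and 10388 CPM against 23.9, 21.2, 17.3 and 17.7 CPM (log2 difference -8.93 ± 0.27). Gapdh was at 20493, 16171, 15657 and 14876 CPM in quadriceps and at 641, 719, 728 and 774 CPM in eWAT (log2 difference -4.55 ± 0.21), so a transcript often used as a constant reference differed between these tissues under every setting tried. The brain-type aldolase Aldoc was higher in eWAT at 25.3, 37.7, 41.9 and 40.2 CPM against 0.335, 0.267, 0.349 and 0.663 CPM (log2 difference 6.53 ± 0.30). Hk1, the hexokinase of most tissues, was at 357, 77.1, 62 and 53 CPM in eWAT and at 16.3, 17.1, 16.4 and 16.1 CPM in quadriceps (log2 difference 3.06 ± 0.70, adjusted p 0.00553), and was 1.98 without eWAT replicate 1.

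Fatty acid oxidation genes were lower for 21 and higher for 1 of 23 members, with a median log2 difference of -2.12. On plain library sizes 17 were lower and 4 higher. Fabp3, the fatty acid carrier of muscle and heart, was at 243, 745, 685 and 539.8 CPM in quadriceps and at 31.5, 3.07, 0.213 and 0.612 CPM in eWAT (log2 difference -5.94 ± 1.5, adjusted p 0.01), and was -8.57 without eWAT replicate 1. Hadha, a subunit of the mitochondrial trifunctional protein, was at 344, 688, 569 and 531 CPM against 134, 94.2, 92.3 and 96.6 CPM (log2 difference -2.35 ± 0.23). Cpt1a, the liver-type carnitine palmitoyltransferase, was the one higher member at 80.6, 137, 182 and 179.7 CPM in eWAT against 13.2, 14.2, 12.8 and 7.74 CPM (log2 difference 3.58 ± 0.30). Ucp3, an uncoupling protein of muscle mitochondria, was at 169, 211, 112 and 119 CPM against 1.17, 0.768, 0.924 and 0.918 CPM (log2 difference -7.32 ± 0.29). Acsl1, which activates long-chain fatty acids in both tissues, did not pass (adjusted p 0.427, or 0.0454 as lower without quadriceps replicate 1).

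Respiratory chain genes were lower in eWAT throughout. All 72 nuclear-encoded members were lower in eWAT, 51 of them past the 4-fold test, with a median log2 difference of -2.67. On plain library sizes 60 were lower and 2 higher. Their log2 differences ran from -3.79 ± 0.19 for Ndufs1, a subunit of complex I, to -0.95 ± 0.14 for Ndufa7, another subunit of the same complex, which was at 0.37 on plain library sizes. Atp5b, the catalytic beta subunit of ATP synthase, was at 3855, 4273, 4613 and 4780.0 CPM in quadriceps and at 460.2, 454, 475 and 448 CPM in eWAT (log2 difference -3.25 ± 0.16). The 13 protein genes of the mitochondrial genome were all lower, with a median log2 difference of -2.76 and 9 past the 4-fold test. The transcript mt-Co1, for a catalytic subunit of cytochrome oxidase, was at 17780.5, 21346, 26519 and 24747 CPM in quadriceps and at 3415, 4212, 4155 and 3552 CPM in eWAT (log2 difference -2.56 ± 0.21). Members of both genomes thus lay within a similar range.

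**Figure D4:**
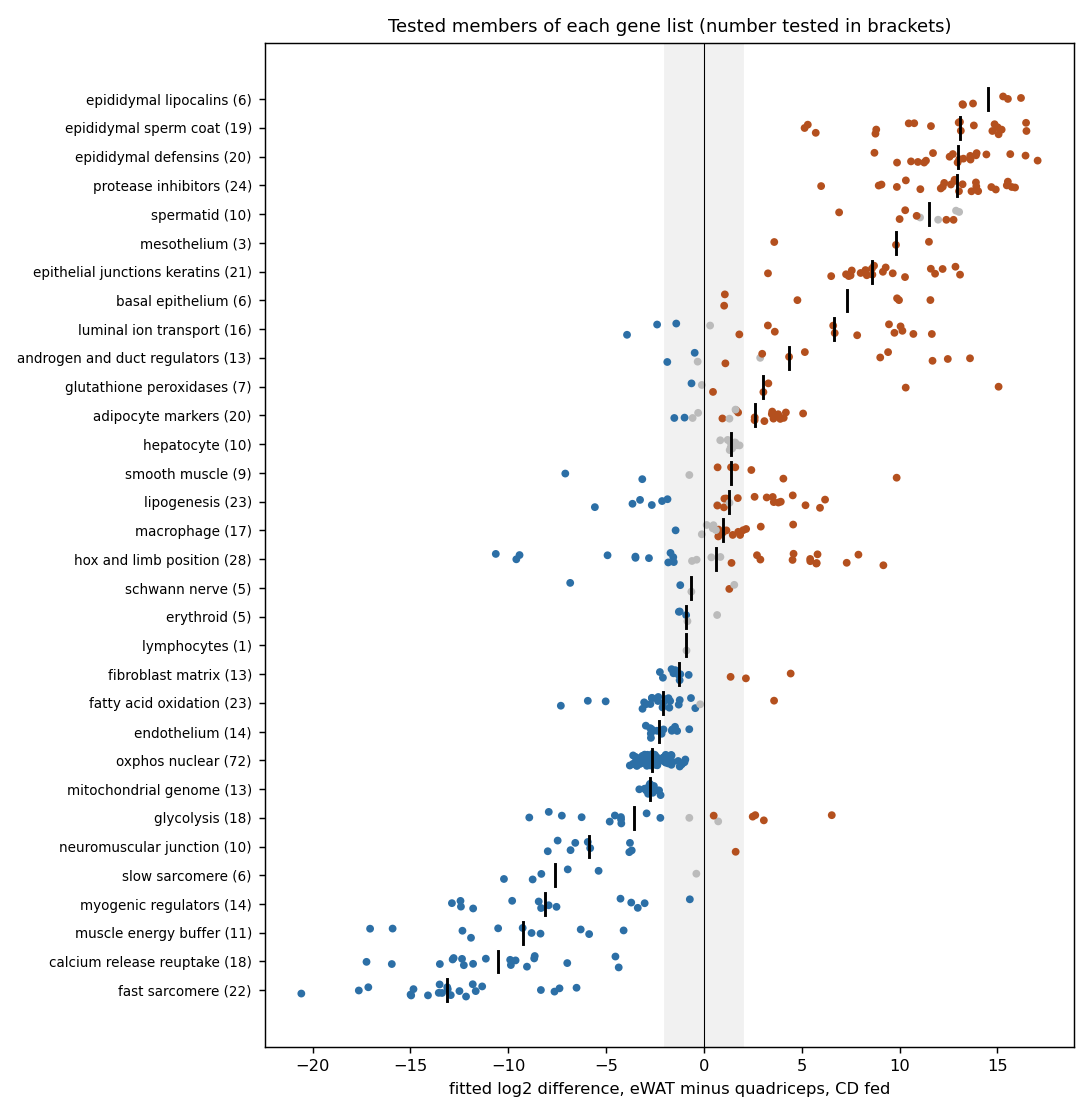
Log2 difference (eWAT minus quadriceps) of each tested member of the 32 gene lists, 1 point per gene, with the list median marked. Brown points are higher and blue points lower at an adjusted p under 0.05, grey points did not pass, and the shaded band spans differences under 4-fold. Epididymal, epithelial and basal lists lie to the right of 0, and sarcomere, calcium, energy and respiratory lists lie to the left.

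Many enzymes exist in a form used by muscle and a form used by other tissues, and 31 such pairs were compared. The muscle form was lower in eWAT in 31 of 31 pairs, 30 of them past the 4-fold test, the exception being the hexokinase Hk2 at a log2 difference of -2.23 ± 0.20. The other form was higher in 25 pairs, lower in 2 and did not pass in 4. Of the 25 higher forms, 11 passed the 4-fold test. Several of the rest had log2 differences below the shift between scalings, such as Eno1 at 0.50, Phka2 at 0.61 and Myl6 at 0.76. The call of Phka2 was lost without eWAT replicate 3 or quadriceps replicate 3 (adjusted p 0.0543 and 0.0512). In creatine kinase, Ckm stood beside the brain form Ckb, which was at 82.9, 157, 97.5 and 144 CPM in eWAT and at 13.1, 13.5, 10.2 and 17.2 CPM in quadriceps (log2 difference 3.16 ± 0.25). In glycogen phosphorylase, Pygm stood beside the brain form Pygb, at 107, 104, 100.01 and 103 CPM against 8.89, 9.23, 11.5 and 12.8 CPM (log2 difference 3.29 ± 0.15). In elongation factor 1A, the muscle and neuron form Eef1a2 had 3 or fewer counts in eWAT and was at 2657, 2741, 2123 and 3326 CPM in quadriceps. Its widely expressed partner Eef1a1 was at 3546, 4287, 5030.3 and 4419.7 CPM in eWAT against 234, 241, 303 and 258 CPM (log2 difference 4.06 ± 0.19).

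The same was measured for ribosomal and respiratory proteins. Rpl3l, the ribosomal protein L3 of striated muscle, was at 879, 923, 693 and 869 CPM in quadriceps and at 18.6, 50.1, 71.2 and 49.2 CPM in eWAT (log2 difference -4.15 ± 0.38), while Rpl3 was at 519.5, 546, 642 and 659 CPM in eWAT and at 43.6, 49.6, 52.2 and 51.1 CPM in quadriceps (log2 difference 3.59 ± 0.15). Cox8b, a cytochrome oxidase subunit of muscle and brown fat, was at 734, 896, 514 and 639 CPM against 0.233, 0.472, 0.213 and 0.816 CPM (log2 difference -10.70 ± 0.40), and its partner Cox8a was higher in eWAT (log2 difference 2.52 ± 0.20). Exceptions were Cox7a2 and Slc16a1, lower in eWAT with their muscle partners (log2 differences -1.17 ± 0.18 and -0.83 ± 0.28). The call of Slc16a1 was lost without eWAT replicate 2 or quadriceps replicate 2, 3 or 4 (adjusted p 0.0513 to 0.0637). Ldhb, Fbp1, Atp2a2 and Actb did not pass, while Fbp1, whose quadriceps counts came from replicate 3 alone, passed as higher without that library. Without quadriceps replicate 1, Ldhb and Atp2a2 passed as lower. The muscle form Cpt1b shares 81.4% of its exonic length with another annotated gene on the same strand, so its counts are uncertain.

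**Figure D5:**
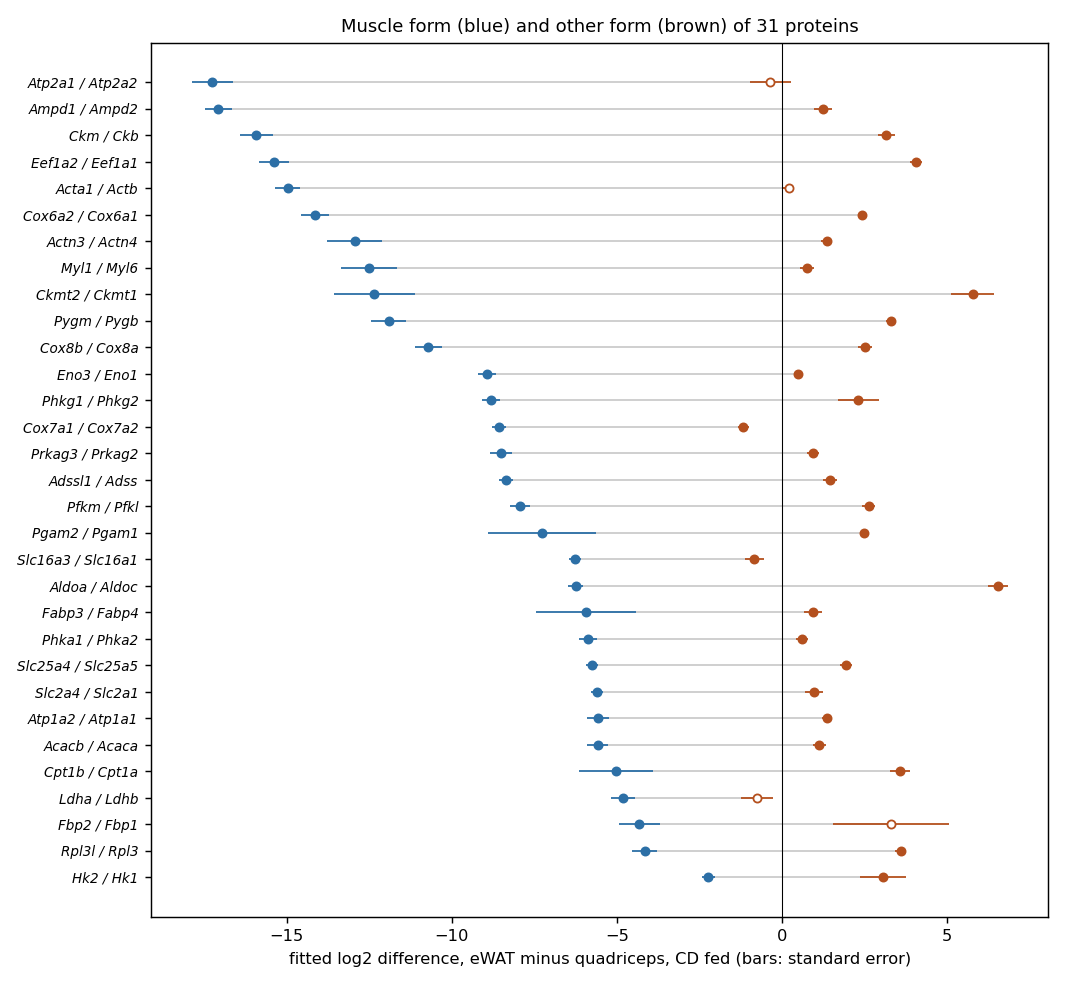
Log2 difference (eWAT minus quadriceps) of the muscle form and of the other form in 31 pairs, with bars of 1 SE and open points where the gene did not pass. The muscle forms lie to the left of 0 in all 31 pairs, and the other forms to the right in 25 at an adjusted p under 0.05.

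Hox genes and limb factors, which keep a record of position along the body, were split between the tissues. Of 28 tested members of a list of 42, 13 were higher and 11 lower in eWAT. The 8 tested genes from Hoxb2 to Hoxb9 were all higher and past the 4-fold test. Hoxb8 was at 63.3, 140.3, 122 and 135 CPM in eWAT and at 0.168, 0.267, 0.116 and 0.221 CPM in quadriceps (log2 difference 9.17 ± 0.40). Hoxb6 was at 73.5, 126, 127 and 157 CPM against 2.01, 1.87, 2.09 and 3.09 CPM (log2 difference 5.76 ± 0.29). Hoxd3, Hoxd4, Hoxd8 and Hoxd9 were higher as well, and Hoxc8 was higher by 1.41 ± 0.27.

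The members lower in eWAT came from the Hoxa and Hoxc clusters and the T-box family. Hoxc10, a gene of the hindlimb, was at 99.6, 97.8, 79.1 and 76 CPM in quadriceps and at 0.0583, 0.236, 0.0711 and 0 CPM in eWAT (log2 difference -9.59 ± 0.36, or -10.50 without eWAT replicate 2). Tbx15, a T-box factor of fast muscle fibres and some fat depots, was at 418, 355, 276 and 355 CPM against 0.175, 0.295, 0 and 0.408 CPM (log2 difference -10.64 ± 0.42). Tbx4, a hindlimb factor, was at 4.36, 4.41, 3.72 and 5.53 CPM against 0.291, 0.0591, 0.0711 and 0.102 CPM (log2 difference -4.93 ± 0.49, or -5.67 without eWAT replicate 1). Hoxc11 was at 7.71, 8.16, 10.1 and 6.41 CPM in quadriceps with no count in eWAT. The list's median log2 difference of 0.61 has no stable sign, being -0.11 without eWAT replicate 1 and -0.32 with no filter on low counts.

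Glutathione peroxidases, which reduce peroxides, were higher for 5 and lower for 1 of 7 tested members of a list of 8. Besides Gpx5, the secreted plasma form Gpx3 was at 1222, 1146, 1206 and 592 CPM in eWAT and at 135, 102, 149 and 123 CPM in quadriceps (log2 difference 3.04 ± 0.25). Gpx6, a close relative of Gpx5, was at 7.34, 16.6, 16.8 and 19.4 CPM with no count in quadriceps. Gpx1, the cytosolic form, differed by 0.46 ± 0.17 on the log2 scale (adjusted p 0.0316), a call lost without eWAT replicate 3 or 4 or quadriceps replicate 2, 3 or 4 (adjusted p 0.0597 to 0.0903). Gpx4, which repairs lipid peroxides in membranes, was at 281, 153, 180.2 and 199 CPM against 329, 289, 339 and 308 CPM, a log2 difference of -0.64 ± 0.19 that turned to 0.69 on plain library sizes, where all 7 were higher. The secreted Gpx5 and Gpx3 thus had the highest levels of the family in eWAT.

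The same contrast in the 8 fed libraries of the juvenile HFD arm, which share no library with the CD arm, had eWAT libraries of mixed composition. Gpx5 was at 9471, 8.18, 1.15 and 10989 CPM in its 4 eWAT libraries, so replicates 1 and 4 were rich in epididymal transcripts and replicates 2 and 3 were not. Adipoq was at 131, 2098, 2017 and 174 CPM in the same libraries, with the opposite order. Replicate 3 also carried muscle transcripts, with Ckm at 2.65, 0, 193 and 0.488 CPM and the fast sarcomere list at 182, 84.8, 1456 and 177 CPM in the 4 libraries. The log2 difference of Ckm was -10.28 in this arm. Levels of this arm come from a separate scaling. Groups were kept as labelled. Of 13162 tested genes, 4004 (30.4%) were higher and 3640 (27.7%) lower in eWAT, 58.1% in all. By more than 4-fold, 696 (5.29%) were higher and 834 (6.34%) lower. On plain library sizes 9208 were higher and 1253 lower.

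The genes of large difference in the CD arm that were also tested in the HFD arm mostly kept their direction. Of 2083 genes higher by more than 4-fold, 1112 were tested in the HFD arm and 1063 of these (95.6%) were called higher, none lower. Of 1265 genes lower by more than 4-fold, 1237 were tested and 1126 (91.0%) were called lower, none higher. Of all 4522 genes lower in the CD arm, 9 were called higher in the HFD arm, among them Cldn5 of endothelial junctions, Ebf1, a factor of adipocytes and B cells, and Cald1, a smooth muscle regulator. Of the genes higher by more than 4-fold, 971 did not pass the filter on low counts in the HFD arm. A gene nearly without counts in quadriceps passed it only if eWAT libraries of that arm held it. The share of 95.6% was therefore set in part by the filter. Likewise, a gene nearly without counts in eWAT passed the filter only through quadriceps, so the share of 91.0% was also set in part by it. Of the list of 7 lipocalins, 2 were tested there.

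The difference between the arms was tested itself over the 16 fed libraries. None of 15679 genes (0%) had a tissue difference that changed with juvenile diet by edgeR, with a smallest adjusted p of 0.298, and 2130 genes had an unadjusted p under 0.05. DESeq2 called 150 genes and limma voom none. With eWAT libraries of such different composition within the HFD arm, diet and tissue composition cannot be told apart.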

How the data were processed

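The deposited files hold whole-number read counts per Ensembl gene and library, made by the authors and not normalized. The submitters' processing notes list HTSeq 0.6.0, TopHat2 2.1.0, Bowtie2 2.2.5 and the GRCm38 build. Which did what, the annotation release and whether strand was used: not given in the sources used here. Summary lines for unassigned reads were left out, and counted reads were 18.4% to 37.3% of the reads listed per library. Of 45232 gene identifiers, 44585 had a symbol in GENCODE M21. Reads aligning to more than 1 place were set aside, so genes with near-identical copies (Hba-a1 and Hba-a2, Eef1a1 with its pseudogenes) are uncertain. Of 186 named genes 57 share exonic bases with another annotated gene, 6 of them over 20% of their length.

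The 4 eWAT and 4 quadriceps libraries were fitted in edgeR 4.0.16 (R 4.3.3) with filterByExpr, TMM scaling and the robust quasi-likelihood test. A difference above 4-fold was tested with glmTreat. Tests were two-sided, and p-values were adjusted by Benjamini-Hochberg across every gene tested, with a threshold of 0.05. The common biological coefficient of variation was 0.34, and 0.37 within eWAT and 0.19 within quadriceps. Levels are CPM on TMM-scaled sizes. Where a group had no count, the fold is a lower bound against 3 counts over the group. With 1 to 3 counts, a ratio with its exact conditional 95% interval is given, which covers counting error only, as reads carried no molecular identifiers. DESeq2 1.42.0 and limma 3.58.1 (voom) were alternatives, with other scalings and filters and with each library left out. The edgeR fits of the CD arm and of the interaction were tested on simulated data in which few genes changed. That test did not cover the scaling between such unlike tissues, the HFD arm, DESeq2 or limma voom.

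The comparison, the 32 gene lists and the 31 pairs were chosen with earlier results of these data known. Named genes are the 4 markers, the 12 most abundant protein-coding genes per direction past the 4-fold test, the 4 most abundant members per list and the pairs. Other list members that are named were chosen after their values were seen, as were the 3 genes named for opposite calls between diets. Exon overlap was computed from GENCODE M21. The promoters are RefSeq sequences. A few genes that the rule names are not reported here.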

Additional observations from a re-analysis of the deposited data

Results flagged for a closer look

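In 327 values checked (named genes with at least 10 CPM in 1 or more libraries of the group, and list sums), 51 had 1 library far from the other 3 of its group by Dixon's ratio for 4 samples. Chance flags about 1 in 20 groups, or about 16.4 of 327. Values are CPM.

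Of the 51, 35 were in eWAT replicate 1. The genes with this library lowest were Mfge8 at 204, Lcn9 at 0.0583, Spag11b at 509.7, Cst11 at 12.7, Pax8 at 106, Etv5 at 6.29, Scd2 at 485, Actg2 at 47.5 and Mylk at 93.3 CPM. Its sums were lowest for sperm-coat genes at 22041, duct regulator genes at 458, epithelial junction and keratin genes at 1972, basal epithelial genes at 116 and smooth muscle genes at 369.8 CPM. The genes with it highest were Col1a2 at 147, Col3a1 at 146, Prm2 at 487, Prm1 at 362, Ldhc at 338, Smcp at 204, Alb at 843, Apoa1 at 204, Ahsg at 120.1, Hbb-bs at 46.8, Ldha at 516, Fabp3 at 31.5, Hadha at 134, Pgam2 at 56.9, Fbp1 at 92.6, Hk1 at 357, Acacb at 25.1 and Phkg2 at 134 CPM. Its sums were highest for spermatid genes at 2129, hepatocyte genes at 1627 and glycolysis genes at 3693 CPM. These are epididymal genes, smooth muscle and duct regulators on the low side, and germ cell, liver, matrix and metabolic genes on the high side.

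Quadriceps replicate 1 was the lowest for Sdha at 1206 and luminal ion transport genes at 148 CPM. Quadriceps replicate 2 was the lowest for Cox8a at 28.2 CPM. Quadriceps replicate 3 was the highest for Alb at 454, Apoa1 at 88.0, Fga at 43.6, Ahsg at 64.7, Fbp1 at 10.3 and hepatocyte genes at 855 CPM. Quadriceps replicate 3 was the lowest for Myh4 at 74279, Myl6 at 68.3 and fast sarcomere genes at 302779 CPM. Quadriceps replicate 4 was the highest for Scd1 at 147 CPM. Quadriceps replicate 4 was the lowest for Ampd2 at 5.97 CPM. eWAT replicate 2 was the highest for Smtn at 25.3 CPM. eWAT replicate 4 was the lowest for Gpx3 at 592 CPM. No flag was found by a tested difference between the diet arms.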

How the results depend on the processing

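No paired analysis was possible because the labels carry no replicate numbers and do not tie libraries of both tissues to the same mouse. The scaling was the choice that mattered most. On plain library sizes 10087 genes were higher and 1795 lower in the CD arm, 4221 and 625 of them by more than 4-fold, and 9208 were higher and 1253 lower in the HFD arm. Among the genes of the lists, pairs and markers that are described, these turned direction on plain library sizes: Car3 1.00, Lpl 0.73, Mzb1 0.39, Dcn 0.11, Col1a2 0.085, Mbp 0.13, Hba-a2 0.11, Hba-a1 0.44, Hbb-bs 0.075, Gpx4 0.69, Ldhb 0.56, Atp2a2 0.93, Cox7a2 0.16, Slc16a1 0.48, Mef2a 0.61, Ndufa7 0.37, Cldn5 0.57, Tpm3 0.90 and Acsl1 1.13 on the log2 scale. RLE scaling, removal of Gm42418 with the mitochondrial genome, no filter on low counts, DESeq2, limma voom and a fit of all 39 libraries left each of the 4 CD counts within 1.5 times the reported one, at 5541 to 6322 genes higher and 4055 to 4616 lower. Leaving out 1 library gave 5392 to 6061 genes higher and 4356 to 4868 lower in the CD arm, 1980 to 2379 and 1217 to 1439 by more than 4-fold, and 3507 to 4573 higher and 3168 to 3812 lower in the HFD arm. The interaction with juvenile diet stayed at 0 to 0 genes when a library was left out, and DESeq2 gave 150 genes, where 11887 adjusted p-values were not available. Leaving out 1 library at a time, 5 described genes that did not pass the test changed sign: Lyz2 ranged from -0.15 (without eWAT replicate 1) to 0.29 and was -0.061 without quadriceps replicate 2, Alb from -0.097 (without eWAT replicate 1) to 6.91, Ahsg from -0.50 (without eWAT replicate 1) to 6.63, and Atp2a2 from -0.73 to 0.15, while Tpm3 was at 0.099 without quadriceps replicate 3. Both upper values of Alb and Ahsg, without quadriceps replicate 3, passed, as did the lower one of Atp2a2, without quadriceps replicate 1. In limma voom Atp2a2 was at 0.12 and Tpm3 at 0.048. For these the cause was not tested. Of the genes named by rule, limma voom lost 7 calls (Lcn8, Defb25, Etv5, Hba-a1, Myh7, Tnni1 and Slc16a1). The fit of all 39 libraries lost 14 (Slc9a2, Itgb4, Trp63, Fabp4, C1qb, Csf1r, Dcn, Hba-a1, Hba-a2, Hbb-bs, Gpx4, Gpx1, Eno1 and Phka2), and basal genes went from 6 to 4 higher, macrophage genes from 11 to 8 higher and matrix genes from 10 to 7 lower. Among the same genes, calls lost without 1 library were those of Etv5, Csf1r, Hba-a1, Hbb-bs, Gpx1, Phka2 and Slc16a1. Of 484 called genes among the lists, pairs and genes named by rule, 92 moved by over 1.5 times without some library, 35 of them without eWAT replicate 1. Depth limits genes with few counts: 11 of 12 lymphocyte markers did not pass the filter on low counts.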
